A study of Mus musculus with 9 samples.

Results

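The subject is a set of 10 genes of the BCL2 family, chosen by name from 21887 protein-coding genes. Earlier results of these data were known when the genes were chosen. They were the pro-survival genes Bcl2, Bcl2l1 (which encodes BCL-XL) and Mcl1, the effectors Bax and Bak1, and the BH3-only genes Bcl2l11 (BIM), Bbc3 (PUMA), Pmaip1 (NOXA), Bmf and Bid. Chromatin came from the thymus of mice of the strain C57BL/6J with a T cell lymphoma that MYCN drives. It was profiled by ChIPmentation, a chromatin immunoprecipitation in which a transposase adds the sequencing adapters. Antibodies were directed against EZH2 and SUZ12 (subunits of Polycomb repressive complex 2), H3K27me3 (the mark that this complex deposits), N-MYC, the acetyltransferase p300, H3K27ac (active chromatin) and H3K4me3 (active promoters). There were 7 immunoprecipitations with 1 library each and no untreated or normal group, so differences could not be set against a spread between libraries, and p-values are absent throughout. The labels do not say how MYCN was expressed, from which animal each library came, or how many animals there were.

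Proteins of the BCL2 family decide whether the outer mitochondrial membrane is permeabilised, the committing step of intrinsic apoptosis. Pro-survival members hold the effectors BAX and BAK in check, and BH3-only members relieve that restraint or activate the effectors directly. In the thymus BIM is required for the deletion of self-reactive thymocytes, and MCL1 and BCL-XL sustain developing T cells. High MYC activity sensitises cells to apoptosis, and MYC-driven lymphomas are known to depend on how this balance is set.

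A gene was read as carrying a feature when a deposited peak overlapped, by at least 1 bp, the 1 kb on either side of its start. The value given is the fold enrichment of the strongest such peak, the authors' linear ratio over background. The start was first taken as the 5′ end of the RefSeq gene. For Bcl2l1, Mcl1 and Bbc3 the starts listed in the RefSeq promoter table lay 1185 to 5314 bp inside that end, so a second reading took the 5′ end together with every listed start. Pmaip1, on chromosome 18, had no strand in that table and was read at both of its ends. All its calls lay at the end with the lower coordinate.

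EZH2 without SUZ12 or H3K27me3 was found at 4 of the 10 genes at the 5′ end, where 30.2% of all genes had it, and at 7 with listed starts, where 32.7% had it. Listed starts were added after the data were seen. With them included, H3K4me3 and H3K27ac were called at all 10 genes (52.9% of all genes for each). EZH2 and p300 were called at 9 each (47.0% and 41.3%), N-MYC at 7 (34.7%), SUZ12 at 2 (13.3%) and H3K27me3 at 1 (25.2%). Bcl2l11 was the 1 gene with all 7 features, although not when the summit had to lie within 1 kb or in lists cut to equal length. Its strongest EZH2, SUZ12 and H3K27me3 peaks had their summits upstream of the start, within the overlapping gene Acoxl. Bmf was the 1 gene without EZH2, and Bak1, Pmaip1 and Bmf were the 3 without N-MYC. The lists hold called sites from bulk chromatin, so a gene without a peak may still carry some signal, and a weak signal in many cells and a strong signal in few cells cannot be told apart.

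At the 5′ end alone, EZH2 was called at 6 of the 10 genes, where 43.1% of 17492 protein-coding genes of known strand had a call. Of the other Polycomb features, SUZ12 was called at 2 (12.2% of all genes) and H3K27me3 at 1 (23.8%). N-MYC was called at 4 (31.6%), p300 at 7 (38.3%), H3K27ac at 9 (49.8%) and H3K4me3 at 8 (49.6%). When listed starts were added, 47.0% of all genes had EZH2, 13.3% SUZ12, 25.2% H3K27me3, 34.7% N-MYC, 41.3% p300 and 52.9% each H3K27ac and H3K4me3. Read at either end, as Pmaip1 was, 44.3% of 21887 genes had EZH2, 13.8% SUZ12, 27.6% H3K27me3, 32.0% N-MYC, 38.4% p300, 52.4% H3K27ac and 50% H3K4me3. The 5 features EZH2, N-MYC, p300, H3K27ac and H3K4me3 coincided at 4 members at the 5′ end (24.7% of all genes) and at 7 with listed starts (27.5%). EZH2 with SUZ12 or H3K27me3 was found at Bcl2 and Bcl2l11 in either reading (12.8% and 14.3% of all genes). These 2 genes had EZH2 and SUZ12 with all 4 active features, as had 1.03% of all genes with listed starts. The members are few and were picked as a pathway, so these shares are set side by side without a test.

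**Figure D1:**
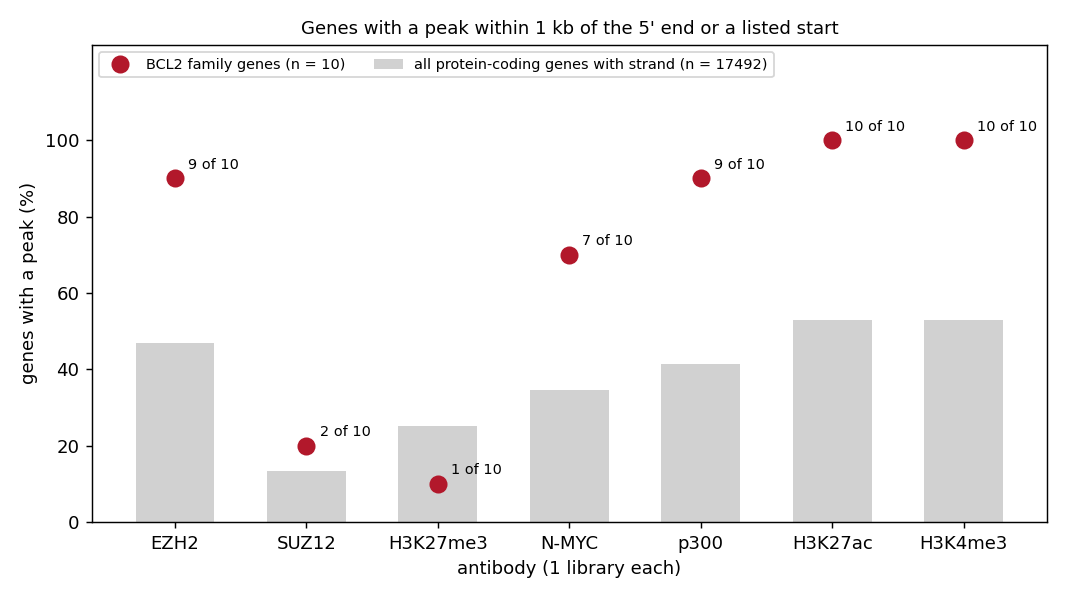
Share of genes with a peak within 1 kb of the 5′ end or a listed start (vertical axis, percent) for each antibody (horizontal axis). Bars show 17492 protein-coding genes, and red points show the 10 BCL2 family genes, which lie above the bar for EZH2 (9 of 10), SUZ12 (2), N-MYC (7), p300 (9), H3K27ac (10) and H3K4me3 (10), and below it for H3K27me3 (1).

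Promoter sequences are shown for members whose N-MYC calls differ, since N-MYC with its partner MAX is known to bind the E-box CACGTG and, less tightly, CACGCG and its reverse complement CGCGTG. Sequences are from RefSeq, assembly GRCm38.p6, and run 5′ to 3′ on the gene's strand over the 250 bases before the start. Capitals mark these E-box letters. They also mark TGTTTAC, or GTAAACA on the opposite strand, which forkhead factors of the FOXO group are known to bind. Bax (chr7:45466899-45467148, minus strand) holds CACGTG just before its start, Bcl2l11 (chr2:128125788-128126037, plus strand, its 5′ start) holds CACGCG and GTAAACA, Bcl2 (chr1:106714291-106714540, minus strand) has an N-MYC peak and none of these letters, and Bmf (chr2:118549687-118549936, minus strand, its 5′ start) has neither.
Bax: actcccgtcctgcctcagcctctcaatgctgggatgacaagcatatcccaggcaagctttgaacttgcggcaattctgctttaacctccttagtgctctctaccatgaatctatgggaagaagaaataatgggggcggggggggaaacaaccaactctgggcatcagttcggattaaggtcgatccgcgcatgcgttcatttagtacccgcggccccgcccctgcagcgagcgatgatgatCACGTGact
Bcl2l11: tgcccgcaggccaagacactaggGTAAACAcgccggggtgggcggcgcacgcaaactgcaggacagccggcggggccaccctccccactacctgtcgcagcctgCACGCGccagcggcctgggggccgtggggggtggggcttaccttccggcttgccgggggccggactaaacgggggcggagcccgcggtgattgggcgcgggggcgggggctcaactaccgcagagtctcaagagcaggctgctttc
Bcl2: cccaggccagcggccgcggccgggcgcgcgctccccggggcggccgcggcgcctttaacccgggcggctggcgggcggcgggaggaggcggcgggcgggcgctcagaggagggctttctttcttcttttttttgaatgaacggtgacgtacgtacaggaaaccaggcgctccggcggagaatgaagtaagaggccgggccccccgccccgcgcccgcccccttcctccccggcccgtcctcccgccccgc
Bmf: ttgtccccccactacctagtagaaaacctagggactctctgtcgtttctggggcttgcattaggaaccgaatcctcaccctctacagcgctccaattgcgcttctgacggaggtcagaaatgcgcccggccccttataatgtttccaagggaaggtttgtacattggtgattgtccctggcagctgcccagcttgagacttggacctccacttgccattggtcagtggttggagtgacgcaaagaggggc

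For genes whose listed starts lie inside the gene, stretches of 30 bases around the letters are shown instead. They lie at Bcl2l1 (chr2:152831797-152831826, minus strand) and at Bbc3 (chr7:16310355-16310384 for CACGTG and chr7:16310083-16310112 for TGTTTAC, plus strand).
Bcl2l1: ccataaacgttcCACGCGcctgagactcct
Bbc3 E-box: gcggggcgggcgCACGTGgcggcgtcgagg
Bbc3 forkhead: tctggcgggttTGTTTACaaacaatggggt

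The stretch searched reached from 250 bases before to 50 bases after each listed start, on both strands, and 9 members had at least 1 stretch. CACGTG was found at Bax, 9 bases before and 35 bases after the start, and at Bbc3, 64 bases before its last listed start. Over all protein-coding genes, 7.84% of 21263 stretches, and at least 1 stretch of 8.91% of genes, held CACGTG. The variant CACGCG or CGCGTG was found at Bcl2l1, Bcl2l11 and Bbc3, and in 12.1% of all stretches (13.7% of genes). TGTTTAC or GTAAACA was found at Bcl2l11 and Bbc3, and in 3.01% of all stretches (3.45% of genes). All 9 of these matches lay inside an N-MYC peak, at 90 to 197 bp from the nearest N-MYC summit. This place does not set the letters apart, because the stretches lie at starts. There, 7 of the 9 members with a stretch had N-MYC. The N-MYC peaks at Bcl2, Mcl1 and Bid had none of the letters in the stretch, and neither had the uncalled genes Bak1 and Bmf. A p53 response element (paired half-sites at most 13 bases apart) was found in none of the members' stretches and in 0.0470% of all. A match describes letters and not a bound site.

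**Figure D2:**
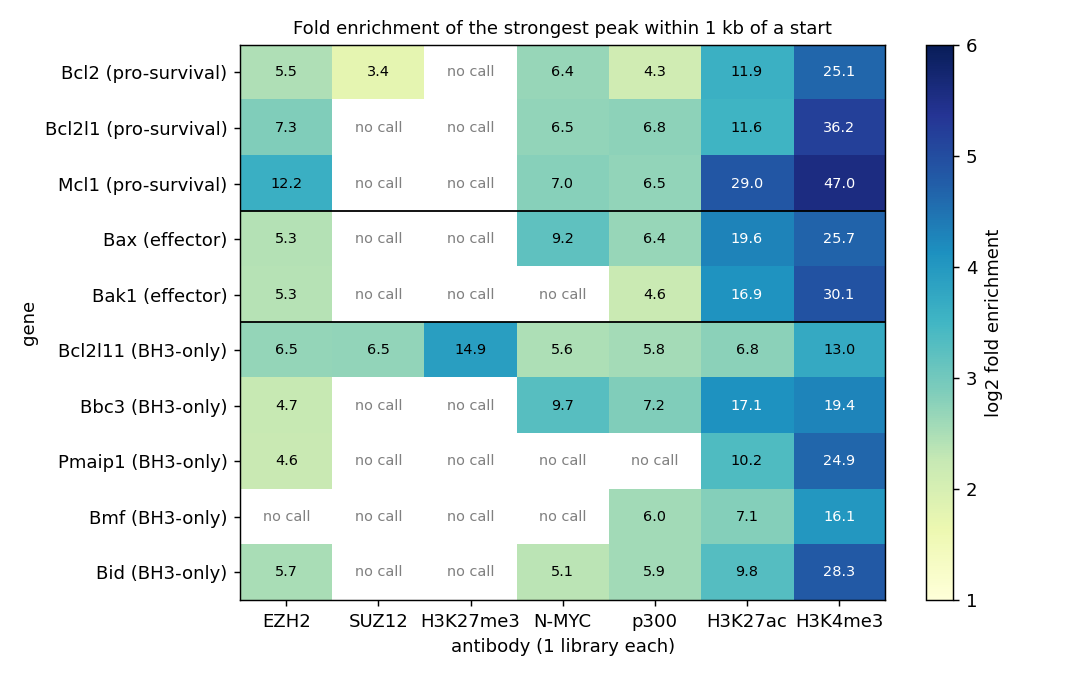
Fold enrichment of the strongest peak within 1 kb of the 5′ end or a listed start for the 10 genes (rows, grouped by role) and the 7 antibodies (columns). Numbers are linear fold enrichments and colour is their log2. Mcl1 has the highest EZH2 (12.2), H3K27ac (29.0) and H3K4me3 (47.0) values, and Bcl2l11 is the row with a value in every column.

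Among the pro-survival genes, Mcl1 had the highest EZH2, H3K27ac and H3K4me3 values. MCL1 is a short-lived protein on which many lymphoid cells depend. At its listed start on chromosome 3 EZH2 reached a fold enrichment of 12.2, N-MYC 6.95, p300 6.51, H3K27ac 29.0 and H3K4me3 47.0, and the nearest H3K27me3 peak was 129 kb and the nearest SUZ12 peak 229 kb away. Of the 8216 genes with EZH2 at a start, 97.1% had a lower EZH2 value than Mcl1, and 99.3% of the 9253 genes with H3K4me3 had a lower H3K4me3 value. Its H3K4me3 peak was 4710 bp wide, wider than at 94.5% of genes (median 2509 bp). The EZH2 summit lay 508 bp inside the start and 50 bp from the H3K4me3 summit. H3K4me3 covered 75.5% and H3K27ac 76.5% of this 6.24 kb gene. All of these calls except H3K27ac lay more than 1 kb from the 5′ end of the gene and are thus counted only with the listed start.

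Bcl2l1 also lacked SUZ12 and H3K27me3 at its starts. EZH2 reached 7.33, N-MYC 6.50, p300 6.76, H3K27ac 11.6 and H3K4me3 36.2, with EZH2 above 74.6% and H3K4me3 above 82.5% of the genes that had a call. The summits of these peaks lay between the listed starts 2075 and 3086 bp inside the 5′ end. Along its body 26 H3K27ac peaks covered 34.5% of 75.1 kb. The density of 3.46 peaks per 10 kb exceeded that of 88.7% of genes and was close to the 3.21 of the much shorter Mcl1. The strongest of them, 8350 bp wide with a fold enrichment of 13.6, had its summit 44.5 kb from the 5′ end and held a p300 peak of 4.15, without N-MYC or EZH2. At the far end of the gene 4 H3K27me3 peaks (2.92 to 5.33) overlapped the gene, where the median of all H3K27me3 peaks was 4.20. The protein-coding gene Cox4i2 overlaps Bcl2l1 there by 6308 bp, so peaks inside this overlap cannot be assigned to either gene. The strongest of the 4 peaks (5.33) lay 67998 to 68797 bp from the 5′ end of the 75072 bp gene. It reached beyond an overlap of that length at the far end.

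Bcl2, the founding member of the family, was read at the same start in both ways. EZH2 was 5.51, N-MYC 6.38, p300 4.28, H3K27ac 11.9 and H3K4me3 25.1, which exceeded 43.8%, 55.2%, 21.6%, 47.0% and 45.0% of the called genes. A narrow SUZ12 peak of 287 bp was called 701 bp inside the start, with a fold enrichment of 3.38, lower than at all but 3.73% of the 2334 genes with SUZ12. The nearest H3K27me3 peak was 183 kb away. This SUZ12 call was lost at a q-value of at most 1e-05, at a fold enrichment of at least 4, with a window of 0.5 kb, and in lists cut to equal length. Only 11 other genes (0.0629%) had the same set of 6 features. A second H3K4me3 site lay 26.2 kb inside the 176 kb gene, where H3K4me3 reached 8.80, H3K27ac 7.46 and p300 3.76, without EZH2 or N-MYC. The rest of the gene carried 3 H3K27ac peaks of 3.50 to 4.74.

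The effectors had similar EZH2 values, and N-MYC was called at Bax and not at Bak1. BAX and BAK oligomerise in the outer mitochondrial membrane and form the pores through which cytochrome c leaves. EZH2 was 5.33 at Bax and 5.30 at Bak1, H3K27ac 19.6 and 16.9, and H3K4me3 25.7 and 30.1. p300 was 6.39 at Bax and 4.57 at Bak1. N-MYC was 9.19 at Bax, above 84.6% of the 6066 genes with N-MYC, with its summit 161 bp inside the start and 126 bp from the nearer of its CACGTG letters. Bak1 had no N-MYC peak within 16.1 kb of its start, although in its decile of H3K4me3 fold enrichment 77.8% of the other 929 genes had one. SUZ12 and H3K27me3 were called at neither gene.

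The start of Bak1 lies 632 bp from that of Ggnbp1, which runs on the other strand and overlaps the whole of Bak1, so its peaks may belong to either gene. Bax is 5.21 kb long and carried 5 H3K27ac peaks, a density above that of 98.7% of genes. The peak of 18.6 among them only reached into the gene, with its summit 6.6 kb from the 5′ end. A further H3K4me3 peak of 26.7 and a p300 peak of 8.0 had their summits beyond the far end of Bax.

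The BH3-only genes differed among themselves. EZH2 ran from no call at Bmf through 4.64 at Pmaip1, 4.70 at Bbc3 and 5.72 at Bid to 6.48 at Bcl2l11. N-MYC ran from no call at Pmaip1 and Bmf through 5.14 at Bid and 5.57 at Bcl2l11 to 9.73 at Bbc3. H3K4me3 ran from 12.98 at Bcl2l11 through 16.1, 19.4 and 24.9 at Bmf, Bbc3 and Pmaip1 to 28.3 at Bid. H3K27ac was called at all 5, from 6.85 at Bcl2l11 and 7.07 at Bmf to 17.1 at Bbc3.

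Bcl2l11 encodes BIM, the BH3-only protein that binds all pro-survival members, and its start on chromosome 2 was where Polycomb and active features met. Upstream lay an H3K27me3 peak of 13183 bp with a fold enrichment of 14.9, a SUZ12 peak of 6011 bp (6.54) and an EZH2 peak of 5939 bp (6.48). Their summits lay 1488, 1550 and 1942 bp before the 5′ start, so the EZH2 and SUZ12 calls were lost when the summit had to lie within 1 kb. H3K27me3 then kept a call only through a peak of 252 bp with a fold enrichment of 4.04, whose summit lay 622 bp inside the gene. In lists cut to equal length the H3K27ac call at the start was lost. The H3K4me3 summit lay 973 bp after that start, and the EZH2 summit was thus 2915 bp away from it, where at the other 8 members with EZH2 this distance was at most 409 bp. N-MYC had peaks at the start (4.54) and 1365 bp inside it (5.57), and p300 (5.85) and H3K27ac (6.85) also peaked inside the gene. The H3K27me3 peak of 14.9 ended 215 bp before the start, and 4 weaker H3K27me3 peaks (3.20 to 4.71) lay within the first 4011 bp of the gene. All 7 features together were found at 0.966% of all genes with listed starts and at 0.640% at the 5′ end. The EZH2 and SUZ12 peaks overlapped the active calls by position, and whether the features occur in the same cells cannot be told from these lists.

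Farther inside Bcl2l11 an H3K27ac peak of 3574 bp (9.0) lay 27.6 kb from the start, together with N-MYC (4.67) and p300 (2.92) and without H3K4me3, EZH2 or SUZ12. It was stronger than any H3K27ac peak at the start of this gene. The gene Acoxl, on the same strand, overlaps the beginning of Bcl2l11 by 215 bp, and its nearest start lies 271410 bp away. The EZH2, SUZ12 and H3K27me3 summits upstream of Bcl2l11 thus lie within Acoxl, and those peaks may belong to either gene.

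Bbc3 encodes PUMA, a p53 target that binds all pro-survival proteins. With listed starts it had the highest N-MYC (9.73) and p300 (7.24) values of the family, above 87.4% and 82.5% of the genes with calls, while its EZH2 value of 4.70 exceeded only 25.5%. At the 5′ end alone Bbc3 had neither N-MYC nor EZH2, its p300 value of 2.74 was the lowest of the 7 members called, and Bax had the highest N-MYC (9.19) and p300 (6.39). The N-MYC summit lay 16 bp from the second listed start and 90 bp from CACGTG. The H3K4me3 peak was 5676 bp wide, wider than at 97.9% of genes, although its fold enrichment of 19.4 exceeded only 28.2%. A further N-MYC peak (4.41), p300 peak (3.94) and H3K27ac peak (11.9) had their summits 5.1 to 5.7 kb from the 5′ end of the 9.94 kb gene.

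Pmaip1 encodes NOXA, a p53-responsive BH3-only protein that binds MCL1. It carried EZH2 (4.64), H3K27ac (10.2) and H3K4me3 (24.9), and their summits lay within 9 bp of the H3K4me3 summit. The nearest p300 peak was 656 kb and the nearest N-MYC peak 658 kb away. Among the 922 genes in the same decile of H3K4me3, 88.9% had p300 and 70.7% had N-MYC. The set of EZH2, H3K27ac and H3K4me3 alone was shared with 189 other genes (1.08%).

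Bmf encodes a BH3-only protein known for its release from the cytoskeleton under stress. It had p300 (5.96), H3K27ac (7.07) and H3K4me3 (16.1) at the 5′ start. The nearest EZH2 peak was 48.6 kb away and the nearest N-MYC peak 4.65 kb away, outside the gene. H3K4me3 without EZH2 was found at 13.6% of all genes. In its decile of H3K4me3, 45.9% of the other 925 genes had EZH2 and 57.0% had N-MYC. The body held 11 H3K27ac peaks, or 5.26 per 10 kb, above 94.3% of genes, and the strongest (8.96) lay 9.1 kb inside the gene, above the value at the start. Another (6.88) had its summit at 5093 bp, beside a listed start at 5099 bp. The only H3K4me3 peak ended 1561 bp inside the gene.

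Bid encodes the BH3-only protein that caspase 8 cleaves to link death receptors to mitochondria. Its start had EZH2 (5.72), N-MYC (5.14), p300 (5.93), H3K27ac (9.83) and H3K4me3 (28.3), and the nearest H3K27me3 peak was 83.2 kb away. The EZH2 summit lay 10 bp and the H3K27ac summit 5 bp from the H3K4me3 summit. Its H3K27ac peak was 7780 bp wide and ran 6474 bp into the gene, where H3K4me3 ended at 1805 bp.

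**Figure D3:**
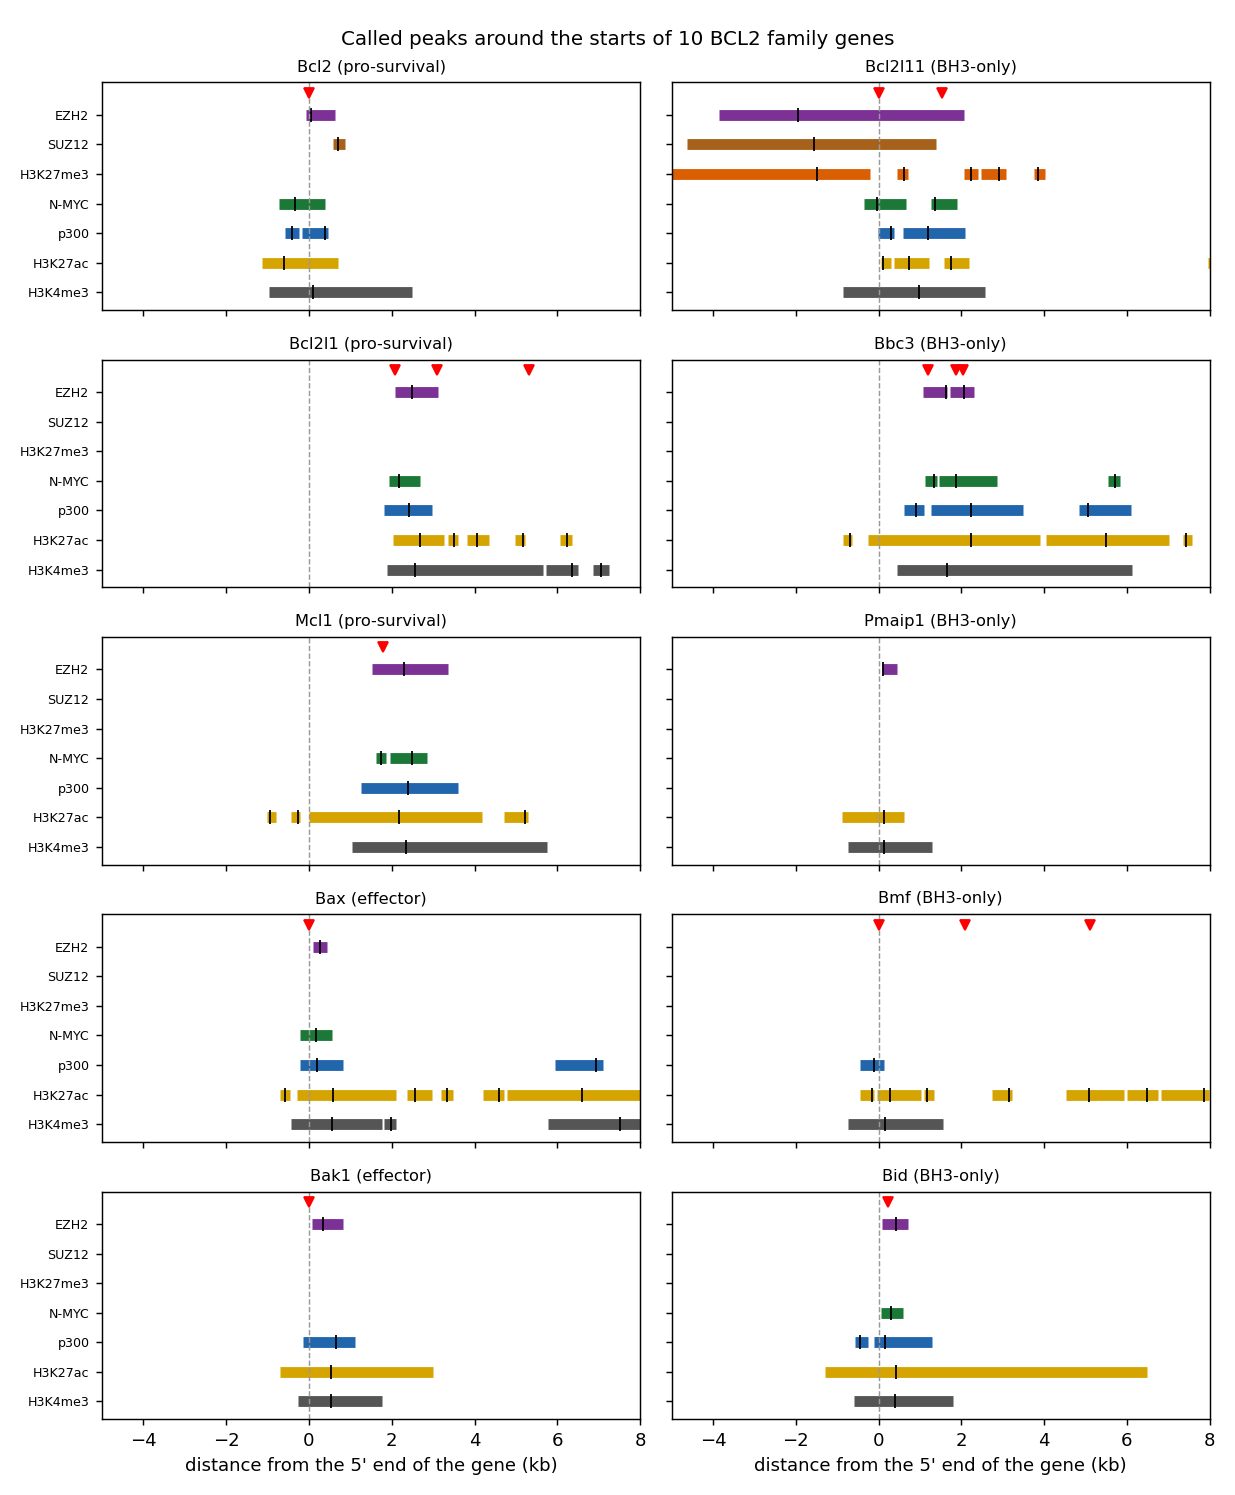
Called peaks of the 7 antibodies (rows within each panel) around the 10 genes. The horizontal axis is the distance from the 5′ end in kb along the direction of transcription, except for Pmaip1, which is drawn from its lower coordinate. Bars are peaks, black ticks their summits, the dashed line the 5′ end and red triangles the listed starts. The calls of Bcl2l1, Mcl1 and Bbc3 gather at the triangles, and the EZH2, SUZ12 and H3K27me3 bars of Bcl2l11 extend to the left of the active calls.

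At the 9 members with EZH2 its summit lay a median of 68.0 bp from the H3K4me3 summit, from 4 bp at Pmaip1 to 2915 bp at Bcl2l11, and over 6882 genes with both the median was 116 bp. N-MYC summits lay 100 to 423 bp from the H3K4me3 summit (median 392 bp, 342 bp over all genes), and p300 summits 47 to 575 bp (median 240 bp, 352 bp over all genes). These medians rest on 7 to 9 genes.

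EZH2 and H3K4me3 fold enrichment were set side by side, because over all genes the share with EZH2 followed H3K4me3, from 46.0% in the lowest decile and 39.5% in the second to 99.1% in the highest. In the deciles of H3K4me3 that held them, 99.1% (Mcl1), 98.9% (Bcl2l1), 93.2% (Bak1), 87.8% (Bid) and 74.5% (Bcl2, Bax and Pmaip1) of the other genes had EZH2. For Bbc3 this share was 45.8% and for Bcl2l11 39.5%. The EZH2 value of Mcl1, 12.2, compares with a median of 8.05 in its decile, that of Bcl2l1, 7.33, with 6.66, and that of Bcl2l11, 6.48, with 5.23. Those of Pmaip1 (4.64) and Bbc3 (4.70) compare with medians of 4.84 and 4.70, and those of Bak1 (5.30) and Bid (5.72) with 5.46 and 5.07. Those of Bcl2 (5.51) and Bax (5.33) compare with a median of 4.83 each. Each list comes from its own antibody and library, and their part in these values was not tested.

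**Figure D4:**
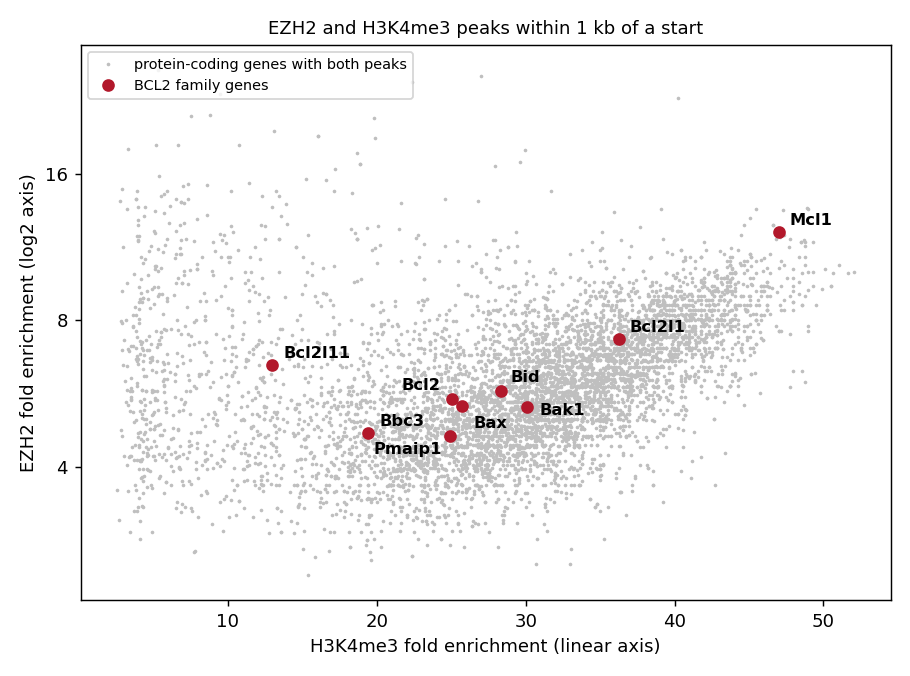
EZH2 fold enrichment (vertical axis, log2 scale) against H3K4me3 fold enrichment (horizontal axis, linear) of the strongest peaks within 1 kb of a start. Grey dots are protein-coding genes with both peaks and red points are the 9 BCL2 family genes with both. Mcl1 (47.0 and 12.2) lies at the upper right, and Bcl2l11 (12.98 and 6.48) at the left.

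Over the gene body, from the 5′ to the far end, EZH2 was called at 9 members (47.1% of 21887 genes), SUZ12 at 2 (14.9%), H3K27me3 at 2 (30.2%), N-MYC at 7 (35.3%), p300 at 9 (42.0%), and H3K27ac and H3K4me3 at 10 each (57.9% and 54.0%). EZH2 peaks in the body were those at the starts, and SUZ12 peaks likewise. H3K27ac extended beyond the starts, with 26 peaks at Bcl2l1, 11 at Bmf, 9 at Bcl2l11 and 5 each at Bcl2 and Bax. Per 10 kb, Bcl2 had 0.284 H3K27ac peaks, close to the median of all genes (0.289).

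**Figure D5:**
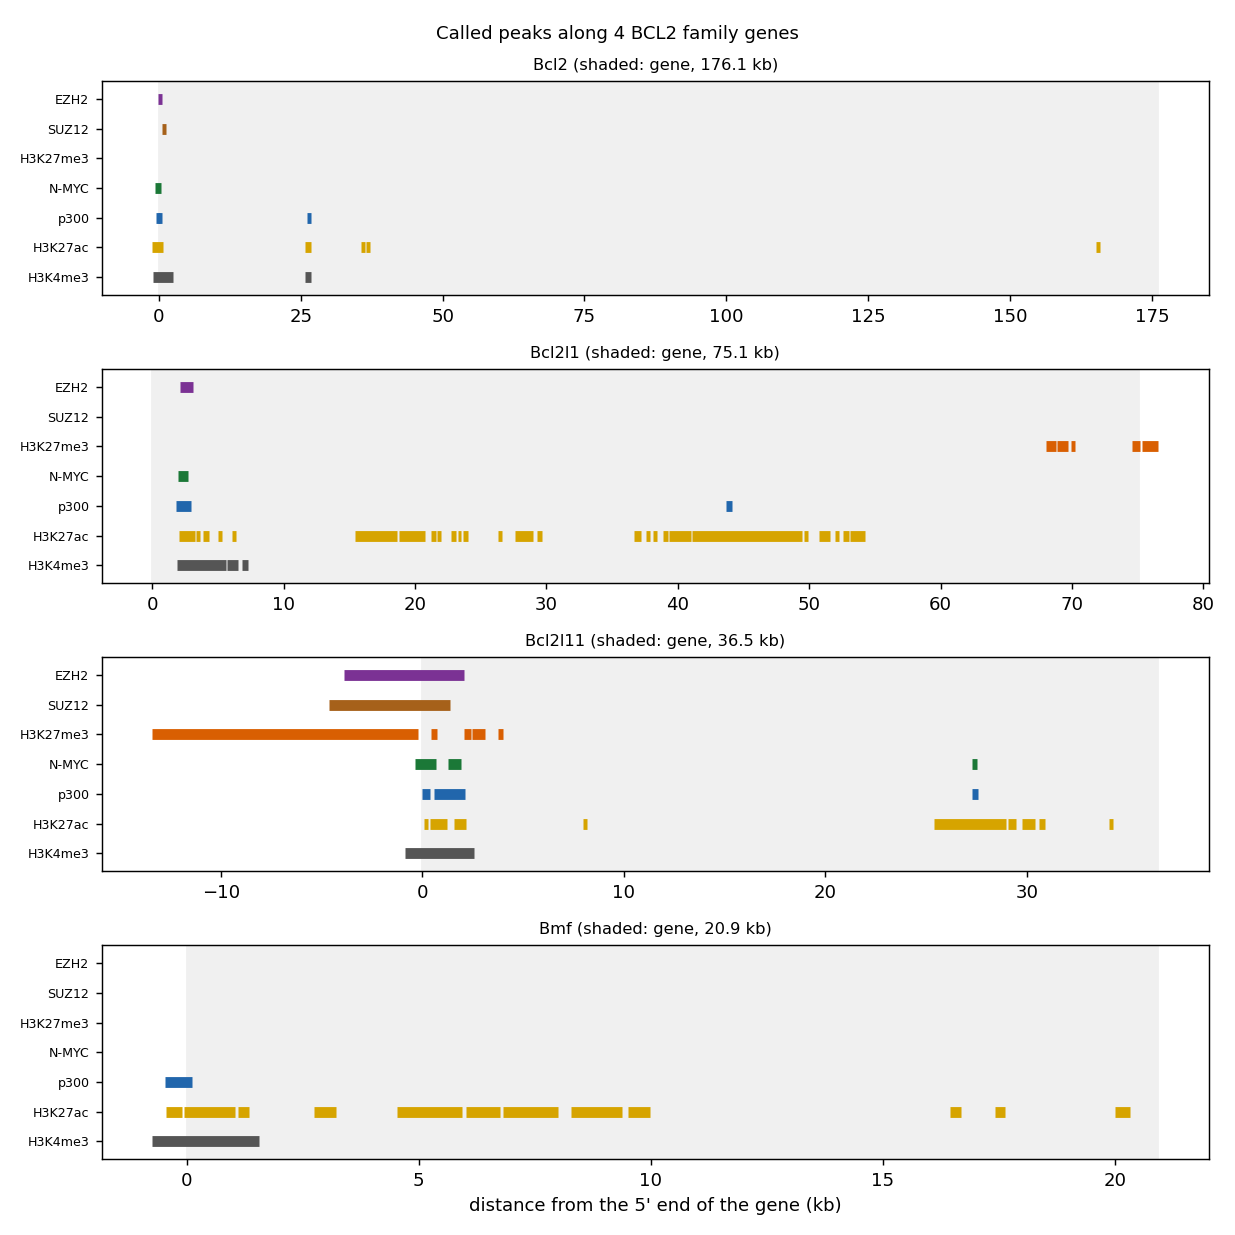
Called peaks of the 7 antibodies along Bcl2, Bcl2l1, Bcl2l11 and Bmf. The horizontal axis is the distance from the 5′ end in kb, with its own scale in each panel, and shading marks the gene. Bars narrower than 0.4% of the gene are widened to that width. H3K27ac continues far into Bcl2l1 (26 peaks) and Bmf (11 peaks). EZH2, called at all but Bmf, lies near the start.

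For the genes with at least 4 features, the gene with the same features and the most similar fold enrichments was looked up among 17492. The mean absolute difference over the shared lists was 0.04 (log2) between Mcl1 and Pan3 and between Bid and Urb1. It was 0.07 to 0.08 between Bcl2l1 and Far1, Bbc3 and Haus8, and Bax and Ctbp1. For Bcl2l11 the closest gene, Stk32c, differed by 0.22, and for Bcl2 the closest, Nr3c2, by 0.26. Only 168 other genes had the features of Bcl2l11 and 11 those of Bcl2. For Mcl1, Bid, Bcl2l1, Bbc3 and Bax there were 4485, so the differences cannot be compared between these groups. Bak1 matched Ggnbp1 at 0.00 because the same peaks were read for both.

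Genes that act around the family were read in the same way, from lists of 15 other BCL2 family genes, 14 genes downstream of the mitochondrion, 7 partners and death receptor genes and 7 regulators of BH3-only genes. Of these 43 genes, 28 had EZH2, 4 SUZ12, 6 H3K27me3, 22 N-MYC, 30 p300, 40 H3K27ac and 38 H3K4me3 at a start, with both ends read for the 9 genes without strand. Over all genes of known strand these shares were 47.0% with EZH2, 13.3% with SUZ12, 25.2% with H3K27me3, 34.7% with N-MYC, 41.3% with p300 and 52.9% each with H3K27ac and H3K4me3. EZH2 without SUZ12 or H3K27me3 was found at 23 (32.7% of all genes) and EZH2 with either at 5 (14.3%).

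Among the other BCL2 family genes SUZ12 and H3K27me3 were called together at 3. Bok, Bik and the neuronal BH3-only gene Hrk had EZH2 (5.77, 7.73 and 10.7), SUZ12 (5.21, 7.56 and 12.5) and H3K27me3 (10.7, 11.1 and 14.0), and none of them had N-MYC or p300. H3K4me3 was called at Bok (3.21) and Bik (7.82), and H3K27ac at Bik (3.37). Bik had no strand and was read at both ends. Bcl2l14 had H3K27me3 (8.79) and H3K27ac (6.50) without EZH2. Bnip3 (8.80) and Bnip3l (4.57), which act in mitophagy, had the highest N-MYC values of that list. Bcl2a1a, Bcl2a1b and Bcl2a1d are near-identical copies of a pro-survival gene, and their calls (H3K4me3 from 8.41 to 17.8, no EZH2) are uncertain because reads can be split between them.

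Downstream of the mitochondrion all 14 genes had H3K4me3 and H3K27ac and 10 had N-MYC. N-MYC was highest at Birc2 (13.4), an inhibitor of apoptosis. Apaf1 and Cycs, whose products form the apoptosome, had EZH2 (6.22 and 7.02), N-MYC (6.54 and 7.47) and neither SUZ12 nor H3K27me3. Among partners, Vdac2 (6.23) and Fadd (4.27) were the 2 genes with N-MYC, and the death receptor gene Tnfrsf10b had H3K27me3 (4.37). All 7 regulators had EZH2, p300, H3K27ac and H3K4me3, N-MYC was highest at Foxo3 (11.2) and Ddit3 (8.56), and Bcl6 had a SUZ12 peak of 3.87.

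The lists held 282301 peaks, from 9798 for N-MYC to 123056 for H3K27me3, and the read depth per library is unknown. H3K4me3 was called at 9 of 11 T-cell marker genes, and not at Cd8a and Rag1, which had H3K27me3 (8.29 and 13.9). Bcl11b had both H3K27me3 (4.69) and H3K4me3 (41.75). H3K4me3 was called at 1 of 5 B-cell (Cd79a, 4.74), 1 of 5 myeloid (Cebpa, 6.81) and 1 of 5 thymic epithelial (Epcam, 19.3) markers. H3K27ac was called at 9, 2, 3 and 2 of these markers, the highest outside the T-cell list being 19.8 at Spi1, and N-MYC and p300 at none outside the T-cell list. The part of other cells in the values above was not tested.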

How the data were processed

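For the 7 antibodies 1 peak list each was used, and the 2 input libraries were not used here. Bowtie2, SAMtools and MACS2 and the builds mm10 and GRCm38 are named in the submitters' processing notes, without versions or settings. Fold enrichment is the linear ratio in the peak lists that the authors deposited, used without rescaling. The −log10 p and q of each peak were deposited by the authors, and the smallest −log10 q was 2.00 to 2.08. The deposited score repeats the q and was not used.

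Gene spans and starts came from RefSeq GRCm38.p6, with strand taken from its promoter table, which held 9 of the 10 members. H3K4me3 was called within 1 kb of 49.6% of 5′ ends, and of 5.03 to 5.61% when these were shifted by 5 to 100 kb. Exons and introns were not analysed. Peak overlaps, counts and motif searches used Python 3.11.15 and pandas 2.3.3, and the window step was tested on simulated data. With 1 library per antibody, no test was run.

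All members are named. Other pathway genes are named where they had SUZ12 or H3K27me3 at a start or the 2 highest N-MYC values of their list, and similar genes by the smallest difference in fold enrichment. Some genes that this rule names are not reported here. Apaf1, Cycs, the Bcl2a1 copies and the markers named singly were chosen after their values were seen, as were the listed starts as a second reading and the motif TGTTTAC. Members and lists were chosen with earlier results of these data known.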

Additional observations from a re-analysis of the deposited data

How the results depend on the processing

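For 17 counts of members, 118 alternative values were computed, of which 98 stayed within 1.5 times the reported count and 20 did not. Adding listed starts, an alternative chosen after seeing the data, raised N-MYC from 4 to 7 members, EZH2 without SUZ12 or H3K27me3 from 4 to 7, and the 5 features together from 4 to 7, since more starts were read. A window of 2 kb also gave 7 members with N-MYC. SUZ12 at the start, and EZH2 with SUZ12 or H3K27me3, fell from 2 members to 1 with a window of 0.5 kb, a q-value of at most 1e-05, a fold enrichment of at least 4, summits in the window, and lists cut to 9798 peaks. SUZ12 over the body fell from 2 to 1 under the last 4 of these. The call lost was that at Bcl2, except with summits, where it was that at Bcl2l11. H3K27me3 rose from 1 to 2 members when either end was read (the far end of Bcl2l1) and fell from 2 to 0 over the body in lists of equal length. Reading the whole H3K4me3 peak moved no count by over 1.5 times. No paired analysis was possible because each antibody had 1 library. The unknown depth limits every missing call.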

Other observations

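Over all 17492 genes with listed starts, N-MYC was called at 56.6% of the 1559 genes with CACGTG in a stretch around a start and at 32.5% of the 15933 without it. For CACGCG or CGCGTG the shares were 66.1% of 2399 genes and 29.7% of 15093. Base composition was not accounted for in these shares. The promoter stretch of Bcl2, which held none of these letters, had 44 CpG dinucleotides, more than 97.1% of stretches. Other members reached 39 (Bbc3, in a stretch with the letters), 38 (Bcl2l11) and 33 (Mcl1). Bax had 19 and Bak1 11, and the median over all was 13.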
